A study of Mus musculus with 12 samples.

Results

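Long noncoding RNAs that were well expressed in mouse pre-B cell lines were compared between lines with the oncogenic fusion kinase BCR-ABL1 and lines with an empty vector (EV). They are the autosomal rows of the count table that the GENCODE M21 annotation types as lincRNA, antisense or bidirectional_promoter_lncRNA, at a CPM (count as parts of the column sum, scaled to 1e6) of 2 or more in all 6 lines of at least 1 condition. This rule found 309 of the 51826 rows, and of 6883 autosomal rows of these types. Malat1, Neat1, Gas5 and the symbols of the Snhg and immunoglobulin families were left out by rule, which removed 6 rows at this level. The rule used the levels in the 12 lines, so the levels below are a description, and a transcript that reached the level in 1 condition only had to differ between the conditions to some degree. Of the 309 transcripts, 162 were lincRNAs (intergenic), 116 antisense and 31 bidirectional promoter transcripts. The level was reached in both conditions by 216, only in EV lines by 64 and only in BCR-ABL1 lines by 29. Just outside the threshold lay 1810062O18Rik, C030037D09Rik and Gm26664, whose lowest line of the better condition had 1.96, 1.96 and 1.98 CPM. Just inside lay 9530082P21Rik, 4833413G10Rik and Gm17096 with 2.02, 2.02 and 2.03 CPM.

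Bone marrow of 2 C57BL/6 mice, whose age is not given in the sources used here, was cultured for 7 days with interleukin 7 (IL7), the growth factor of early B cells. Cells of each mouse were then transduced with the retroviral vector pMIG, empty or carrying BCR-ABL1, which gave 3 lines per mouse and vector, 6 per condition. All lines stayed in IL7 for 48 h. BCR-ABL1 lines then lost IL7 for 1 week, whereas EV lines kept it and were sorted for GFP, so that BCR-ABL1, IL7 withdrawal and sorting cannot be told apart, and p-values measure the spread between lines of only 2 animals. A line such as EV 2C is called by its vector, its mouse and a letter.

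Total RNA was sequenced on stranded libraries, and the lines held from 34791011 to 66011225 counts on genes. The 309 transcripts took between 1.27% and 1.78% of them, of which Gm26917 and Gm42418, 2 models at the ribosomal RNA locus of chromosome 17, took between 0.539% and 1.08%. The 14 B lineage markers summed to between 3814 and 7100 CPM for EV and between 3742 and 4868 CPM for BCR-ABL1. Within this list Dntt, the terminal transferase of early B cells, had 0.101 to 18.5 CPM (median 0.353) in EV lines and was called higher in BCR-ABL1 lines (log2 change 4.30), and Il7r (-1.06) and Cd93 (-1.02) were called lower. All 9 myeloid markers together reached at most 1.78 CPM. All 5 of mast cells and basophils reached at most 0.276 CPM, and all 6 stromal markers at most 1.59 CPM. The 7 erythroid and megakaryocyte markers summed to between 3.12 and 9.06 CPM in EV lines and between 6.77 and 13.6 CPM under BCR-ABL1. Of these Hbb-bt was called higher (log2 change 1.72) and Itga2b lower (-0.99). The 9 T and NK cell markers summed to between 11.2 and 42.1 CPM in EV lines against 0.706 to 4.995 CPM in BCR-ABL1 lines. In EV lines Trac gave most of this sum, with Ncr1 at 3 counts or fewer in every line. Of the 3 tested T and NK genes Trac (-5.46) and Cd3d (-2.67) were called lower. Klrb1c went the other way (1.45, up to 3.68 CPM under BCR-ABL1) and was not called. Mature B markers (6 genes) summed to between 136 and 313 CPM in EV lines and to between 44.8 and 117 CPM under BCR-ABL1. In bulk RNA, fewer cells of a type and less RNA per cell cannot be told apart, and the part of these markers in the results below was not tested. EV 2C stood apart from the other EV lines. Among the EV lines it had the lowest value for 151 of the 309 transcripts and the highest for 45, and values that it moves by over 1.5 times are also given without it.

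Long noncoding RNAs are transcripts without a long open reading frame. Many start from the promoter of a coding gene on the opposite strand (divergent transcripts), some run antisense across a coding gene, and others lie between genes, often in enhancer regions. Some are hosts from which microRNAs are cut, and others have known roles of their own, such as Kcnq1ot1 in genomic imprinting or Pvt1, a neighbour of the oncogene Myc. Unstable noncoding transcripts are removed in the nucleus by the RNA exosome with its adaptor complexes.

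The promoters of 4 loci are shown because the largest rise, the rise with the smallest adjusted p and the 2 divergent pairs in which both genes fell are told from them. Each window holds 250 bases before and 50 from a RefSeq start on (build GRCm38.p6), printed 5′ to 3′ on the strand of the named gene. In the window of Gm17767 (chr1:51596669-51596968, minus strand) capitals mark the transcribed bases. For D030045P18Rik (chr10:45807454-45807753, plus strand) they mark a match to TTCNNNGAA, of which the window of Irf2 also holds one that is not marked. For Ndufaf3 (chr9:108567387-108567686, minus strand) and Irf2 (chr8:46739495-46739794, plus strand) they mark the bases that lie between the start of the coding gene and that of its divergent partner, 4833445I07Rik or Gm16675.
Gm17767: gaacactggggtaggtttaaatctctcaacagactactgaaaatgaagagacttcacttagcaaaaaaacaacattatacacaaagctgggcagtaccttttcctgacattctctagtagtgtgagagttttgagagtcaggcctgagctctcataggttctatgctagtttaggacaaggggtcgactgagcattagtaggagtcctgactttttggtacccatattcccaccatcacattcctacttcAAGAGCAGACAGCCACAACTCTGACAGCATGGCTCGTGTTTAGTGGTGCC
D030045P18Rik: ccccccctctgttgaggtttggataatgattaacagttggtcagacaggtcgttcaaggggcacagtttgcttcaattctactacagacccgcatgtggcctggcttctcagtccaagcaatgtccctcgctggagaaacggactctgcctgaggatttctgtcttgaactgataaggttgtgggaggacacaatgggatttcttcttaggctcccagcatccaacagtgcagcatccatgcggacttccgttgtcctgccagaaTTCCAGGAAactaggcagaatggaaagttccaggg
Ndufaf3 with 4833445I07Rik: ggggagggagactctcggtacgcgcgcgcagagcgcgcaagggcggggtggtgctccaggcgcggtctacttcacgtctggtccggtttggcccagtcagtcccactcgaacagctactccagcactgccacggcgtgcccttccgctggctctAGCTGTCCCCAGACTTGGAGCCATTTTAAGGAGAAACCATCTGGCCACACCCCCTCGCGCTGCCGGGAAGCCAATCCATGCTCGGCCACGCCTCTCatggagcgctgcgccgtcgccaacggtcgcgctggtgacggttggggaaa
Irf2 with Gm16675: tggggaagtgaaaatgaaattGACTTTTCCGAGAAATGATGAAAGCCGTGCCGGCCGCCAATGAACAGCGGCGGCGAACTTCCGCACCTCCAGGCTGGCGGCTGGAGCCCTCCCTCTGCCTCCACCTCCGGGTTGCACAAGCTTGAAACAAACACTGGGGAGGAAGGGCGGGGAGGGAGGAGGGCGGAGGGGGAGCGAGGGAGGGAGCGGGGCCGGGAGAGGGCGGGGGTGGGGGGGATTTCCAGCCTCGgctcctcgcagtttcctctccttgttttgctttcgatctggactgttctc

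These windows differ in base composition. The shared windows of Ndufaf3 and Irf2 hold 29 and 19 CG dinucleotides, whereas those of Gm17767 and D030045P18Rik hold 2 and 6. A window of the same symbol whose start lay within 500 bases of the annotated one was found for 128 of the 309 transcripts. Their median was 21 CG dinucleotides, the same as for 9432 windows of coding genes at the same level, and 7 over all 32851 windows. Of the transcripts called lower in BCR-ABL1 lines 23 had such a window, with a median of 28, and of those called higher 6, with a median of 1. The palindrome TTCNNNGAA, the letters that STAT factors bind, which act below the IL7 receptor and BCR-ABL1, was present in 8.30% of all windows and in 9 of the 128 (7.03%). It stood in 1 of the 6 windows of risen and 2 of the 23 windows of fallen transcripts, those of Gm16675 and Gm46404. CACGTG, the E-box letters, stood in 7.15% of all windows and in 14 of the 128 (10.9%). Both motifs read the same on both strands, and a match to one cannot overlap a match to the other. These matches are a description of letters.

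The microRNA hosts Mir17hg, Mir155hg and Mir142hg reached the level, and mature microRNAs within them are shown because their seeds define target groups. Capitals mark the seed, bases 2 to 8.
mmu-miR-17-5p: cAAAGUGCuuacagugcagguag
mmu-miR-20a-5p: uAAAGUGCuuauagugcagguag
mmu-miR-18a-5p: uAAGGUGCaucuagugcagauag
mmu-miR-19a-3p: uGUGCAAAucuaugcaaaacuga
mmu-miR-19b-3p: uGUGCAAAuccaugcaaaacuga
mmu-miR-92a-3p: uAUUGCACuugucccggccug
mmu-miR-155-5p: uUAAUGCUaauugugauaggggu
mmu-miR-142a-5p: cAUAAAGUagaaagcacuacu
mmu-miR-142a-3p: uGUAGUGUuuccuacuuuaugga

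The first 6 lie in Mir17hg on chromosome 14 and share 4 seeds, since miR-17 and miR-20a have one in common and miR-19a and miR-19b another. The seventh lies in Mir155hg and the last pair in Mir142hg. The sequences are RefSeq's. The RNA measured here was total RNA counted on genes, so the values below are those of the host transcripts and not of mature microRNAs.

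Most of these transcripts were lower in BCR-ABL1 lines. The median log2 fold change (BCR-ABL1 minus EV) of the 309 was -0.51, and 241 of them (78.0%) were negative. Over all 15038 tested genes the median was -0.02, and over the 9251 autosomal coding genes at the same level it was 0.04, with 46.8% negative. Changes were tested with glmTreat of edgeR against a 1.5-fold change, and genes with a Benjamini-Hochberg adjusted p under 0.05 over all tested genes were called. By this test 12 transcripts were higher in BCR-ABL1 lines, 59 were lower and 238 were not called. Over all tested genes 5.99% were called higher and 6.49% lower (12.5% in all), and over the coding genes at the same level 4.92% and 4.17% (9.09% in all). For the 309 transcripts these shares were 3.88% and 19.1%. The rule itself admitted 64 transcripts through the EV lines alone, all with a negative change, and 31 of them were called lower. Of the 12 largest falls, those of D630033O11Rik, Gm15326, Gm4221, D230017M19Rik, 4930481A15Rik, Gm16638, Gm20045, Gm45606 and 4933406I18Rik were among these 31. They thus passed only through the EV lines, in which they were high. Through the BCR-ABL1 lines alone the rule admitted 29, of which 8 were called higher and 0 lower. These 8 were Gm17767, D030045P18Rik, Gm6093, Gm10384, Gm13067, Gm15987, Gm12493 and Gm11755, which thus passed only through the lines in which they were high. Among the 216 at the level in both conditions 4 were called higher and 28 (13.0%) lower, with a median of -0.45 and 79.2% negative. Without EV 2C 16 transcripts were called higher and 84 lower, and over all genes 2787 were called in place of 1877.

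The shift to lower values was of similar size in both mice. The median change was -0.49 in the lines of mouse 1 alone, -0.48 in those of mouse 2 alone and -0.58 without EV 2C. With size factors of DESeq2 in place of TMM it was -0.49. Among the 216 transcripts at the level in both conditions the median was -0.40 in mouse 1 alone and -0.39 in mouse 2 alone. Medians were also negative in each range of level, but the ranges were not limited to these 216. They include transcripts admitted through the EV lines alone, all with a negative change, so these medians rest in part on the rule. Transcripts with a mean of 2 to 4 CPM had a median of -0.59 (n = 92), those of 4 to 8 CPM one of -0.51 (n = 100), those of 8 to 16 CPM one of -0.47 (n = 48) and those above one of -0.34 (n = 66). Coding genes in the same ranges had medians of 0.30, 0.01, -0.06 and 0.04. Other noncoding types at this level, which are no members of the set, are given for comparison only. The medians were -0.31 for 103 processed transcripts, -0.32 for 310 TEC models, which GENCODE keeps apart until they are tested in experiments, -0.23 for 34 sense intronic transcripts, 0.23 for 55 processed pseudogenes and 0.56 for 54 snoRNA genes.

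The lines of the 2 conditions did not overlap for 20 transcripts that were higher and 117 that were lower in BCR-ABL1, where 12.1% and 13.5% of all tested genes (25.6% in all) were separated in this way. The rule favours such separation for transcripts admitted through 1 condition alone, which gave 11 of the 20 and 44 of the 117. Among the 216 at the level in both conditions 9 were separated with higher and 73 with lower values. Of the 71 called transcripts 69 were separated, the others being A330035P11Rik and 1700027J07Rik, which are named because they were the exceptions. The falls were mostly small. Their median was 2.47-fold, 43 of 59 were under 3-fold, and only 4 passed 4-fold.

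**Figure D1:**
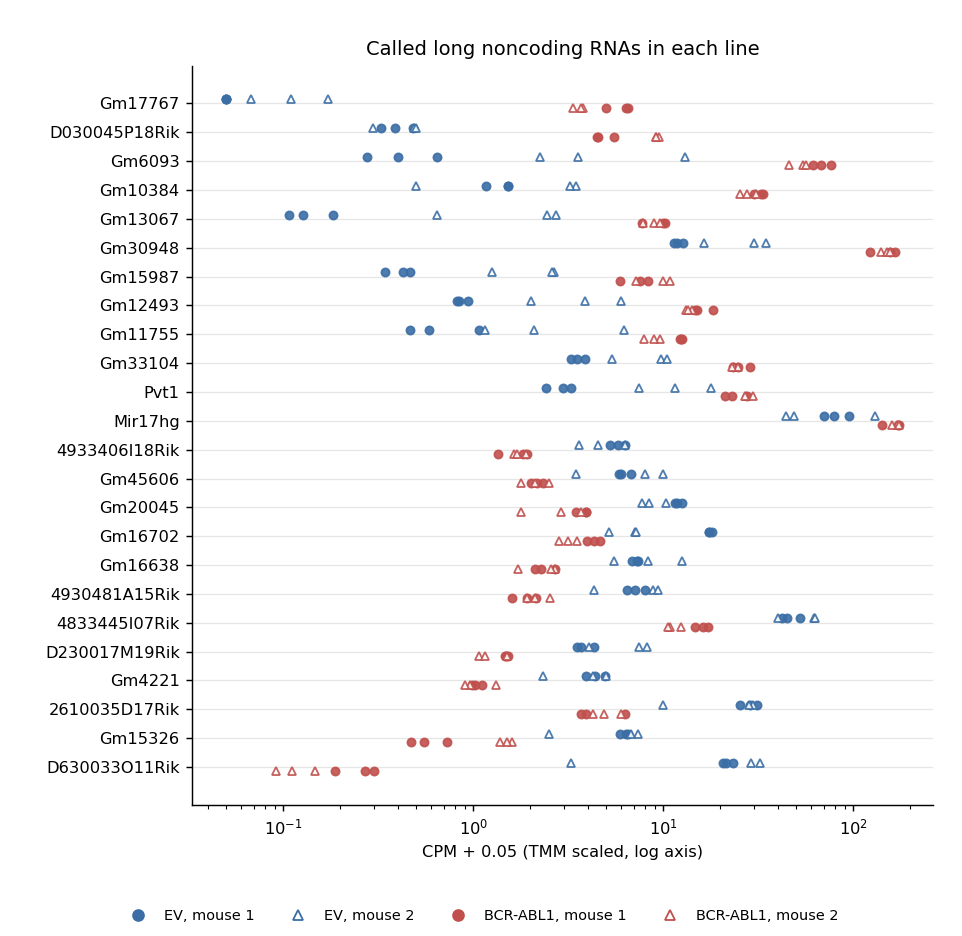
The 24 called transcripts with the largest rises and falls, each line shown by its CPM after TMM scaling plus 0.05 on a log axis (filled circles, mouse 1; open triangles, mouse 2; blue, EV; red, BCR-ABL1). The conditions do not overlap for any of the 24, and for most risen transcripts the EV lines of mouse 1 lie below those of mouse 2.

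The strongest rise was that of Gm17767 (ENSMUSG00000099413), a lincRNA of chromosome 1 (51507086 to 51596718, minus strand of GRCm38). It was almost absent from EV lines, with CPM between 0 and 0.123 (median 0.00902), and had between 3.31 and 6.45 CPM (median 4.35) in BCR-ABL1 lines. In counts these were 0 to 4 reads per EV line, 8 in all, against 172 to 304 per BCR-ABL1 line. The ratio of the summed counts per total was 180 (95% exact interval 91.1 to 418, counting error only). The fitted log2 change of 7.36 depends on the prior count (adjusted p = 3.4e-05), and without EV 2A it was 8.18. Its nearest coding gene was Nabp1, a single-stranded DNA-binding protein of the DNA damage response, which starts 28661 bases downstream on the same strand. Nabp1 had 10.7 to 17.1 CPM in EV lines versus 60.7 to 77.3 CPM under BCR-ABL1, a log2 change of 2.16 ± 0.14 (SE, adjusted p = 3.2e-06). This was the only risen transcript whose nearest coding gene was itself called.

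D030045P18Rik (ENSMUSG00000110874, chromosome 10, 45807562 to 45852283) rose in every line of both mice. Its EV lines had 0.245 to 0.451 CPM (median 0.386), and its BCR-ABL1 lines had 4.43 to 5.43 CPM for mouse 1 and 9.07 to 9.5 CPM for mouse 2. The log2 change was 4.25 ± 0.26 (adjusted p = 3.2e-06). Hace1, a ubiquitin ligase 95217 bases away, had a log2 change of -0.37 (adjusted p = 1).

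Gm6093 and Gm10384 rose from low to well expressed. Gm6093 (chromosome 13, 33562486 to 33569317) had 0.226 to 12.9 CPM (median 1.39) in EV lines versus 45.7 to 75.9 CPM (median 58.7) under BCR-ABL1, 4.197 ± 0.88 on the log2 scale (adjusted p = 0.00679). The highest EV value was that of EV 2C, and without this line the change was 5.53. Gm10384 (chromosome 15, 36870501 to 36879816) had 0.451 to 3.4 CPM (median 1.47) in EV lines versus 25.4 to 33.3 CPM (median 30.5) under BCR-ABL1. Its log2 change was 4.03 ± 0.43 (adjusted p = 6.88e-05). The nearest coding gene of Gm6093 was Serpinb9g, which was not tested for lack of counts. That of Gm10384 was Ywhaz, the 14-3-3 protein zeta, 73572 bases away, with a log2 change of 0.46 (adjusted p = 1).

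Gm30948 lies among the variable genes of the immunoglobulin heavy chain on chromosome 12 (115262684 to 115287908). It was already well expressed in EV lines, with 11.4 to 34.5 CPM (median 14.5) in EV lines versus 123 to 167 CPM (median 153) under BCR-ABL1. The change was 2.94 ± 0.29 on the log2 scale (adjusted p = 7.32e-05) and was called in the lines of either mouse alone. The nearest gene of the coding type, Zfp386, lay 759816 bases away and had a log2 change of -0.03.

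In a further 5 risen transcripts the EV lines of mouse 2 lay above those of mouse 1 and below the BCR-ABL1 lines. Gm13067 had 0.0578 to 0.132 CPM in EV lines from mouse 1, 0.595 to 2.66 CPM in those from mouse 2 and 7.69 to 10.2 CPM under BCR-ABL1 (log2 change 3.21 ± 0.89, adjusted p = 0.0323). Gm15987, which runs antisense to Clec2g in the cluster of C-type lectin genes on chromosome 6, had 0.292 to 0.414, 1.21 to 2.61 and 5.89 to 10.8 CPM in the same order (2.74 ± 0.57, adjusted p = 0.00819). Gm12493 had 0.768 to 0.885, 1.96 to 5.95 and 13.1 to 18.3 CPM (2.64 ± 0.51, adjusted p = 0.00618). Without one of 4 of the BCR-ABL1 lines Gm13067 was not called (adjusted p up to 0.0545), and its change was 3.84 without EV 2B and 4.14 with mouse as block. For Gm11755 the EV lines had 0.414 to 6.2 CPM, the highest being EV 2C, and the BCR-ABL1 lines 7.92 to 12.5 CPM (2.49 ± 0.57, adjusted p = 0.0206), and without EV 2C the change was 3.38. Gm33104 had 3.21 to 10.4 CPM in EV lines versus 23 to 28.5 CPM under BCR-ABL1 (2.04 ± 0.31, adjusted p = 0.00165). The nearest coding genes of these 5 were Gpr157 (log2 change -1.12), Clec2g (not tested), Grhpr (0.78), Tbc1d16 (1.12) and Ifngr1 (0.61), a chain of the interferon gamma receptor, and none was called.

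Pvt1 and Mir17hg, both known from B cell tumours, completed the risen transcripts and had the smallest changes. Pvt1 (ENSMUSG00000097039, chromosome 15, 62037986 to 62378096) had 2.35 to 3.21 CPM in EV lines from mouse 1, 7.41 to 17.7 CPM in those from mouse 2 and 21 to 29.7 CPM under BCR-ABL1. Its log2 change was 1.79 ± 0.49 (adjusted p = 0.0427). Myc, which lies 47612 bases upstream on the same strand, had 31 to 195 CPM (median 82.5) in EV lines versus 70.4 to 135 CPM (median 98.5) under BCR-ABL1, a log2 change of 0.17 (adjusted p = 1). The values of Myc therefore overlapped where those of Pvt1 did not. Mir17hg (ENSMUSG00000089726, chromosome 14, 115042879 to 115046727) had 44 to 130 CPM (median 74.5) in EV lines versus 142 to 175 CPM (median 171) under BCR-ABL1, 1.09 ± 0.24 on the log2 scale (adjusted p = 0.0467). Both calls stood near the threshold. Leaving out 1 line moved the adjusted p of Pvt1 to between 0.00351 and 0.0786 and that of Mir17hg to between 0.00305 and 0.0873, the lowest in both cases without EV 2C, and 10 of the 12 omissions ended either call. Gpc5, the coding gene nearest to Mir17hg, was not tested.

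The deepest fall was that of D630033O11Rik (ENSMUSG00000095385), a lincRNA of chromosome 9 (43243599 to 43280076, plus strand). The other EV lines had 20.6 to 32.2 CPM when EV 2C had 3.21 CPM, whereas BCR-ABL1 lines had 0.0415 to 0.251 CPM (2 to 13 reads). The log2 change was -7.31 ± 0.59 (adjusted p = 1.4e-05), and the summed counts per total were 164 times higher in EV lines (95% exact interval 121 to 228, counting error only). Oaf, 3688 bases away on the other strand, fell too. It had 28.7 to 80.8 CPM in EV lines versus 7.49 to 21 CPM under BCR-ABL1, a log2 change of -1.97 ± 0.36 (adjusted p = 0.00423).

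Gm15326 (chromosome 13, 111867936 to 111874730) had 2.45 to 7.36 CPM (median 6.39) in EV, the lowest in EV 2C, and 0.418 to 1.54 CPM (median 1) in BCR-ABL1 lines. Its log2 change was -2.56 ± 0.40 (adjusted p = 0.00128). Map3k1, a kinase upstream of the JNK pathway 58943 bases away, had 265 to 392 CPM in EV lines versus 134 to 174 CPM under BCR-ABL1 (log2 change -1.12 ± 0.11, adjusted p = 0.000599). The 2610035D17Rik transcript of chromosome 11 had 9.92 CPM in EV 2C, 25.3 to 31.1 CPM in the other EV lines and 3.66 to 6.27 CPM under BCR-ABL1 (-2.41 ± 0.29, adjusted p = 0.00016). Its neighbour Slc39a11, a zinc transporter 43015 bases away, was not called (log2 change -0.08).

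The divergent lincRNA 4833445I07Rik (ENSMUSG00000103103, chromosome 9, 108567533 to 108569174, plus strand) was the best expressed of the deeply fallen transcripts. It had 40.3 to 63.2 CPM (median 48.5) in EV lines versus 10.6 to 17.2 CPM (median 13.5) under BCR-ABL1, -1.90 ± 0.17 on the log2 scale (adjusted p = 5.38e-05). Ndufaf3, an assembly factor of mitochondrial complex I that starts from the same promoter window, had 20.9 to 32.4 CPM in EV lines versus 11.3 to 15.9 CPM under BCR-ABL1 (log2 change -1.07 ± 0.13, adjusted p = 0.00317). The conditions were separated for both genes. 4933406I18Rik, 120 bases from the phosphodiesterase gene Pde3b, had 3.55 to 6.28 CPM in EV lines versus 1.3 to 1.86 CPM under BCR-ABL1 (-1.65 ± 0.15, adjusted p = 0.000245). Pde3b had 136 to 189 and 85.9 to 110 CPM (log2 change -0.74, adjusted p = 0.111), so the lines were separated but the change was not called.

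The other named falls lay between 3.16-fold and 4.07-fold. Gm4221 had 2.27 to 4.94 CPM in EV lines versus 0.851 to 1.27 CPM under BCR-ABL1 (log2 change -2.03), and overlaps Zfp608 on the other strand, whose change was -0.12. D230017M19Rik had 3.48 to 8.19 and 1.02 to 1.48 CPM (-1.97, adjusted p = 0.000666). Its neighbour Pecr, a peroxisomal reductase of fatty acid metabolism, was the only nearest coding gene called in the opposite direction, with 1.01 to 2.7 CPM in EV lines versus 3.59 to 5.14 CPM under BCR-ABL1 (1.10 ± 0.21, adjusted p = 0.0319). 4930481A15Rik (-1.88) runs antisense to Drap1, a subunit of a transcriptional corepressor, whose change was 0.01. Gm16638 (-1.79) lies antisense to Tmc3, which was not tested, and Gm16702 (-1.70) antisense to T2 (-0.44). Gm20045 (-1.68) lies 2968 bases from Dedd (-0.29), and Gm45606 (-1.66) antisense to the amino acid transporter gene Slc43a2 (-0.59). Apart from Pecr, no tested neighbour named here was called.

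The changes are described next by position to the nearest coding gene, which the rule used in part, since the annotated types are set by position. Of 43 divergent transcripts, those that start within 2000 bases of a coding gene on the opposite strand and run away from it, 42 had a negative change, with a median of -0.69. Of these, 12 were called lower and 0 higher by edgeR (8 and 0 by DESeq2, and 18 and 0 at an unadjusted p under 0.05), where 6.49% of all tested genes were called lower and 5.99% higher. Of 895 divergent coding genes 35 were called in either direction. In the annotated bidirectional promoter class all 31 were negative, 6 of them called. Among 139 transcripts that overlap a coding gene on the opposite strand 32 were called lower and 1 higher, with a median of -0.59 and 89.2% negative. Farther from coding genes the picture was mixed. Transcripts upstream of a coding gene on its strand had a median of 0.05 (n = 34, 7 called higher and 0 lower, by DESeq2 6 and 0, and at an unadjusted p under 0.05 7 and 1), those downstream one of -0.17 (n = 32, 3 higher and 5 lower), and the other ones on the opposite strand one of -0.33 (n = 46, 1 higher and 8 lower). The 15 that overlap a coding gene on the same strand had a median of -0.01, with 2 called lower. Of the 12 risen transcripts 9 lay more than 20 kb from the nearest coding gene, compared with 50 of all 309, whereas 46 of the 59 fallen ones lay within 400 bases of one or over it, compared with 198 of all 309. Of the 12 risen transcripts 8, and of the 59 fallen ones 31, reached the level only in the condition in which they were high. The positions of the called transcripts thus rest in part on the rule, and the classes were not counted among the 216 alone. These counts are descriptions of a set chosen on level, and no class was tested against another.

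**Figure D2:**
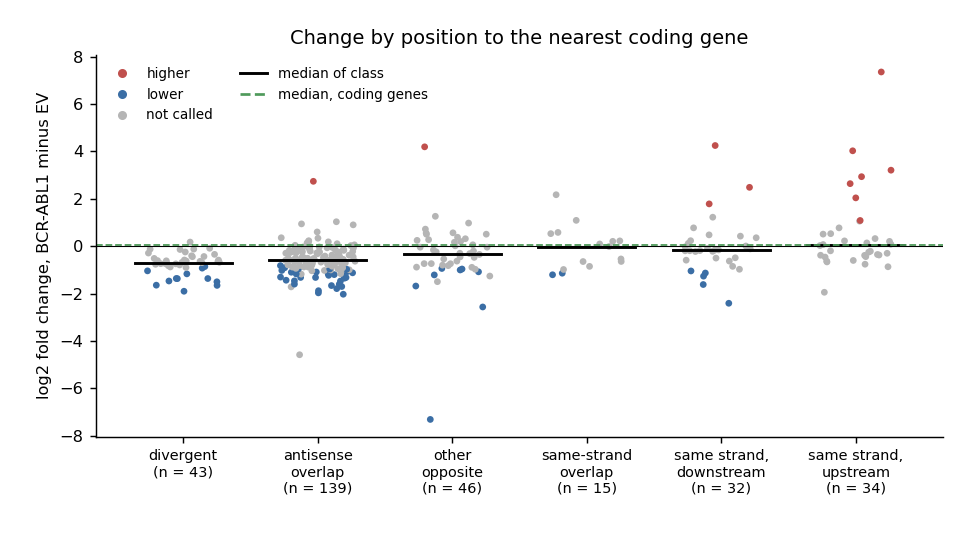
Log2 fold change of each of the 309 transcripts (points; red, called higher; blue, called lower; grey, not called), by position to the nearest coding gene, with the median of the class (black bar) and that of coding genes at the same level (dashed green line, 0.04). The divergent and antisense classes lie mostly below 0, and 7 of the 12 risen transcripts are in the class upstream on the same strand.

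Counts of overlapping genes carry an uncertainty. The kit keeps the strand, but whether the counting used it is not given in the sources used here, so reads of an antisense transcript and of the coding gene under it may not have been told apart. Exons of 124 transcripts overlap coding exons of the other strand, and 15 transcripts overlap a coding gene of their own strand, 137 in all. Of the remaining 172 transcripts, 12 were called higher and 28 lower (16.3%), with a median of -0.38 and 71.5% negative. Near-identical copies elsewhere (at least 95% identity over at least 50% of the transcript) were found for 21 of the 309, of which 1 was called. This was Gm20186, a copy of Gm12840, whose counts are uncertain for that reason.

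Of the coding partners of the 12 fallen divergent transcripts 2 were called, Ndufaf3 and Irf2. 4933433G15Rik (log2 change -1.64) lies 179 bases from Mapk6, an atypical MAP kinase (0.29), and Gm44899 (-1.50) lies 266 bases from Zfp592 (-0.30). Gm20186 (-1.47) faces Lsm8, an RNA-binding Lsm protein (0.34), 4930480K23Rik (-1.37) faces Chmp7, a component of the ESCRT-III machinery (-0.17), and 4632404H12Rik (-1.36) faces Ube2q1, a ubiquitin-conjugating enzyme (-0.12). A330035P11Rik (-1.17) lies 64 bases from Tm9sf2 (-0.08), and 3110083C13Rik (-0.92) lies 61 bases from Micu2, a regulator of mitochondrial calcium uptake (-0.04). None of these coding genes was called. AV099323 (-1.04) lies 43 bases from Pcna, the sliding clamp of DNA replication, and had 2.49 to 4.33 CPM in EV lines versus 1.5 to 1.94 CPM under BCR-ABL1 (adjusted p = 0.0176). Pcna had 363 to 561 CPM in EV lines versus 590 to 687 CPM under BCR-ABL1 (log2 change 0.32, adjusted p = 1). The partner of 4632427E13Rik (-0.86), Rab30, was not tested. Gm16675 is the second divergent transcript whose partner was called, with 7.48 to 13 CPM in EV lines versus 3.48 to 4.11 CPM under BCR-ABL1 (-1.36 ± 0.13, adjusted p = 0.000528). Irf2, an interferon regulatory factor 217 bases away, had 31.2 to 58.1 CPM in EV lines versus 20.3 to 29.7 CPM under BCR-ABL1 (-0.93 ± 0.16, adjusted p = 0.0362).

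The coding genes under the other fallen antisense transcripts are named with what they encode. Gm26944 (log2 change -1.46) overlaps Pcf11, a factor of transcript cleavage and termination (-0.03), Gm17690 (-1.32) the splicing factor gene Sf3b4 (-0.04), Gm14966 (-1.16) the splicing factor gene Sf1 (0.12), and Gm16794 (-1.32) the exonuclease gene Xrn1 (-0.14). Gm17249 (-1.23) overlaps Polr3b, a subunit of RNA polymerase III (0.01). Phf2os1 (-1.47) overlaps the demethylase gene Phf2 (-0.72), H3f3aos (-1.32) the histone H3.3 gene H3f3a (-0.30), Gm16124 (-1.17) the ubiquitin ligase scaffold gene Cul5 (0.17) and Gm9725 (-0.96) the deubiquitinase gene Usp38 (-0.10). Other pairs were Gm4117 (-1.60) with Vcan (-1.01), Man2c1os (-1.32) with Man2c1 (-0.30), C920021L13Rik (-1.20) with Ciart (-0.04), and Gm46218 (-1.19) with Echdc1 (0.06). Gm48768 (-1.12) overlaps Poc1b (-0.35), AA543186 (-1.10) overlaps Man1b1 (-0.34), Gm27003 (-1.09) overlaps Gabpb1 (-0.11), and Gm17259 (-0.96) overlaps the centrin gene Cetn3 (0.50). E130307A14Rik (-0.82) overlaps Traf3ip2 (-0.01), Gm45051 (-1.60) overlaps 0610030E20Rik (-0.72), Gm20163 (-0.97) overlaps 4931428F04Rik (-0.42), and Gm15409 (-1.30) overlaps Gm42791 (1.75). None of these coding genes was called. The coding genes over Gm4673 (-1.43), Gm36266 (-1.07), Tmem147os (-1.02) and Ccdc142os (-0.91), which are Lsr, Pcolce, Gapdhs and Mrpl53, were not tested.

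A further pair of transcripts overlap coding genes that were called with them, and their values cannot be fully separated. Mypopos had 8.56 to 15 CPM in EV lines versus 3.56 to 5.88 CPM under BCR-ABL1 (log2 change -1.35), and Mypop on the other strand had 0.705 to 2.43 and 0.313 to 0.487 CPM (-1.82, adjusted p = 0.00361). Gm5914 had 6.62 to 18.5 and 3.95 to 5.44 CPM (-1.14), and Agrp within it had 0.361 to 1.41 and 0.0454 to 0.27 CPM (-2.39, adjusted p = 0.0039).

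The last group of fallen transcripts lay outside coding genes, except A130014A01Rik, which overlaps Gm20388 on its strand. BC043934 (log2 change -1.62) lies 32799 bases from Rnf7 (0.49), 5830454E08Rik (-1.26) 2677 bases from the ribosomal protein gene Rpl14 (0.49), and D130017N08Rik (-1.21) 26074 bases from Usp42 (-0.31). Fbxl12os (-1.08) lies 847 bases from Fbxl12 (-0.75), 2610037D02Rik (-0.96) 3023 bases from the chromatin remodelling gene Arid2 (-0.46), and 1700027J07Rik (-1.002) 108352 bases from Qrsl1 (-0.18). D730003I15Rik had 3.97 to 6.77 CPM in EV lines versus 2.66 to 3.78 CPM under BCR-ABL1 (-0.94), while Atf3, a stress-induced transcription factor 6415 bases away, had 0.0144 to 0.847 and 0.831 to 2.81 CPM (2.61, adjusted p = 0.062). No neighbour in this group was called. A130014A01Rik (-1.20), Gm46404 (-1.13) and 1700096K18Rik (-1.04) had neighbours that were not tested, namely Gm20388, Btn1a1 and Cct8l1.

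Of the 71 called transcripts 59 had a nearest coding gene that was tested, and 8 of these genes (13.6%) were called, 7 in the same direction and 1 in the other, where 12.5% of all tested genes and 9.09% of coding genes at the level were called. Without EV 2C the pairs called in the same direction numbered 14. Of 594 called coding genes with a tested nearest coding gene, 123 (20.7%) had one that was called. Signs agreed in 42 of the 59 pairs (71.2%) and in 68.2% of the coding pairs. Across all 250 transcripts with a tested neighbour the changes of both had a Pearson r of 0.31, against 0.21 across 6772 coding pairs. Genes are not independent replicates, the pairs share the 12 libraries, and the r is a description.

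**Figure D3:**
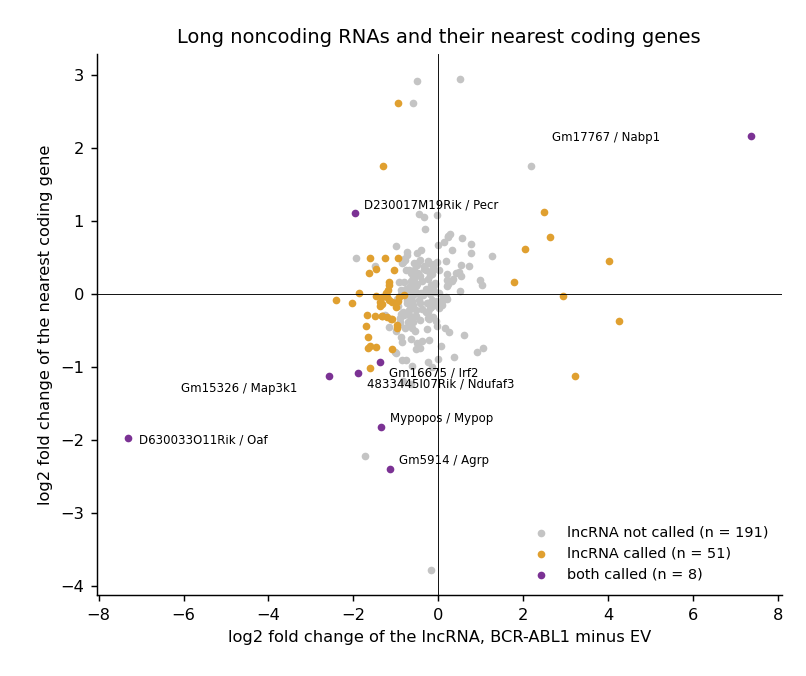
Log2 fold change of the nearest coding gene against that of the long noncoding RNA for the 250 pairs in which both were tested (grey, transcript not called; orange, transcript called; purple, both called). The 8 pairs with both called are labelled, and 7 of them lie in the quadrants of equal direction.

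The 6 most abundant transcripts are given next, none of which was called. Gm26917 had 3660 to 8132 CPM in EV lines versus 5940 to 6484 CPM under BCR-ABL1, and Gm42418 had 1036 to 2195 and 1705 to 2214 CPM (log2 changes 0.09 and 0.14). Both lie at the ribosomal RNA locus. 2900097C17Rik, the mouse Norad transcript that binds Pumilio proteins, had 342 to 468 CPM in EV lines versus 492 to 532 CPM under BCR-ABL1 (0.38 ± 0.06), separated but under the 1.5-fold threshold (adjusted p = 1). It shares sequence with Gm7292. 1700020I14Rik had 309 to 391 and 279 to 334 CPM (-0.20). Gm42047, which has near-identical copies, had 725 to 1248 CPM in EV lines, 763 to 844 CPM in mouse 1 with BCR-ABL1 and 1715 to 2099 CPM in mouse 2 with it (0.58, adjusted p = 0.769).

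Gm26870 at the assembled start of chromosome 9 (3000282 to 3038313) varied widely between lines. EV lines had 7.65, 39.4, 56.8, 272, 655 and 2439 CPM, the lowest in EV 2C and the highest in EV 2A, and BCR-ABL1 lines had 4.61 to 98.4 CPM. The log2 change of -4.58 ± 1.41 was not called (adjusted p = 0.0541). With mouse as a block the change was -4.44 and was called (adjusted p = 0.0189), as it was without EV 2C (-4.84, adjusted p = 0.0215) and without BCR-ABL1 2C (-5.94, adjusted p = 0.0212). Without EV 2A the change was -3.11 and not called. It was also called by DESeq2 (adjusted p = 0.00798) and without EV 1B (adjusted p = 0.0464).

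Of the 15 listed transcripts among the 309, 3 were called, and of all 309 transcripts 71. Among listed microRNA hosts, Mir142hg had 161 to 256 CPM in EV lines versus 117 to 145 CPM under BCR-ABL1 (log2 change -0.66 ± 0.12, adjusted p = 0.403), and Mir155hg had 1.83 to 3.9 and 3.2 to 4.79 CPM (0.32). The same list held Mirt1 and Lockd. Mirt1 had 8.08 to 86.2 CPM in EV lines, the lowest in EV 2C, and 38.9 to 62.1 CPM under BCR-ABL1 (0.21). Lockd, downstream of the cell cycle inhibitor gene Cdkn1b, had 38.2 to 68.2 and 43.2 to 59.1 CPM (-0.19), and Cdkn1b itself had a change of -0.20. Of 9 tested transcripts of the list, Mir17hg rose, and Mir22hg and Mir670hg fell (-1.50 and -1.29), both below the level of 2 CPM.

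Tug1, a conserved lincRNA induced by p53, had 239 to 256 CPM in EV lines versus 195 to 209 CPM under BCR-ABL1. The conditions were separated, but the difference was small (log2 change -0.28 ± 0.02, adjusted p = 1). Kcnq1ot1, the imprinted transcript over Kcnq1, had 214 to 293 and 216 to 288 CPM (0.04). Gm26740 (-0.58), AU020206 (-0.30), Gm20628 (-0.20) and Epb41l4aos (0.51) were not called. Of 18 tested transcripts on the list of blood cell regulators, 4 were called higher and 2 lower, where 5.99% and 6.49% of all tested genes were called in these directions, a background that also applies to the other lists. Of these Pvt1, Gm15987 and Mir17hg belong to the 309 transcripts, whereas Zfas1 (0.94), 4930417H01Rik (-2.80) and A930007I19Rik (-1.18) do not. On the imprinted list 6 were tested and Gm12992 fell (-3.24), and on the p53 list 8 were tested, of which Pvt1 rose and Neat1 (-2.27) and Gm13889 (-1.14) fell. Of the homeobox cluster transcripts 0 passed the filter on low counts.

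Factors that shorten or remove noncoding transcripts were listed beside them. Of 24 tested genes of the RNA exosome and its nuclear adaptors, and of 24 tested genes of the Integrator complex and early termination, 0 were called in either list by edgeR or DESeq2, and 0 passed an unadjusted p under 0.05 against 1.5-fold, with median log2 changes of 0.26 and 0.11. Over all tested genes 12.5% were called. Shares were lower among the 7250 coding genes with a mean of 16 CPM or more, where these factors lie, with 3.30% called lower and 2.88% higher. The lines did not overlap for 8 exosome and adaptor genes that were higher in BCR-ABL1 lines and 1 that was lower, and for 3 and 1 of the Integrator list, where 12.1% and 13.5% of all tested genes were separated. The summed level of the exosome and adaptor genes was 1925 to 2525 CPM in EV lines versus 2540 to 2636 CPM under BCR-ABL1. For example, the exosome nucleases Dis3 and Exosc10 had changes of 0.68 (adjusted p = 0.44) and -0.23 (adjusted p = 1).

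The change differed between the mice for 52 of the 309 transcripts (16.8%) by the interaction of mouse and condition (glmQLFTest of edgeR, adjusted p under 0.05), against 16.9% of all tested genes. Without EV 2C it differed for 101 (32.7%), against 36% of all tested genes. The change was larger in mouse 1 for 33 of the 52, and in 19 the sign was opposite. Of the 12 risen transcripts 9 were among the 52, and of the 59 fallen ones 5. In 9 of the 12 risen transcripts all EV lines of mouse 2 lay above all EV lines of mouse 1, and EV 2C was the highest EV line for 6. Among the 59 fallen transcripts EV 2C was the lowest EV line for 47. All 71 had the same sign in both mice. In the lines of mouse 1 alone 12 of the 12 and 57 of the 59 were called, and in those of mouse 2 alone 6 and 14.

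Nespas, the imprinted antisense transcript of the Gnas locus, had the smallest p of this interaction. In mouse 1 it had 44.4 to 48.8 CPM in EV lines versus 4.87 to 12.1 CPM under BCR-ABL1, a log2 change of -2.50. In mouse 2 it had 1.32 to 3.71 CPM in EV lines versus 12.8 to 15.1 CPM under BCR-ABL1, a log2 change of 2.57. The difference of 5.08 had an adjusted p of 5.47e-05, and both changes were called in their own mouse. Its EV lines thus differed between the mice far more than its BCR-ABL1 lines did. Gnas, which encodes the stimulatory G protein alpha subunit, had 370 to 444 CPM in EV lines versus 263 to 337 CPM under BCR-ABL1 (log2 change -0.45, adjusted p = 1).

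Trp53cor1, the p53-induced lincRNA-p21 next to Cdkn1a, had 0.476 to 0.583 CPM in EV lines from mouse 1, 2.34 to 8.98 CPM in those from mouse 2 and 6.85 to 9.72 CPM under BCR-ABL1. Its log2 change was 4.04 in mouse 1 and 0.24 in mouse 2 (adjusted p of the difference 0.000638). Cdkn1a, the cell cycle inhibitor p21, had a change of 0.52 over both mice (adjusted p = 0.96). Platr27 had 0.452 to 0.599 CPM in EV lines of mouse 1, 1.57 to 2.6 CPM in those of mouse 2 and 2.25 to 2.91 CPM in BCR-ABL1 lines. Gm46430 showed the reverse order of levels, with 61.9 to 65.6, 31.3 to 34.6 and 27.3 to 33.2 CPM (log2 change -1.17 in mouse 1 and -0.12 in mouse 2). In all 4 transcripts the EV lines of the mice were fully apart, but the 4 were chosen by the smallest p of the interaction. The BCR-ABL1 lines of the mice overlapped for Gm46430 and Platr27. They were apart for Nespas and for Trp53cor1 (7.85 to 9.72 CPM in mouse 1, 6.85 to 7.28 CPM in mouse 2), with smaller gaps than between the EV lines.

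**Figure D4:**
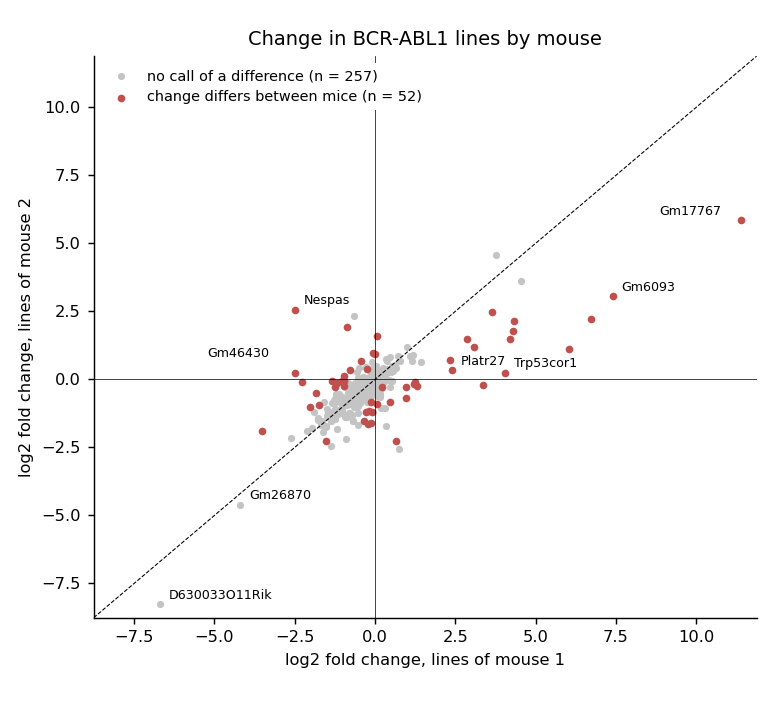
Log2 fold change in the lines of mouse 2 against that in the lines of mouse 1 for the 309 transcripts (red, the change differs between the mice by the interaction test; grey, no call of a difference; dashed line, equal change). Nespas falls in mouse 1 and rises in mouse 2, and Gm6093 and Trp53cor1 lie far below the line of equal change.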

How the data were processed

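Counts on genes of 12 lines, 6 per condition, were used as deposited. The authors aligned stranded total RNA reads to GRCm38 and deposited whole-number counts without normalization or pooling. The submitters' processing notes name FastQC 0.11.5, Trimmomatic 0.36, TopHat2 2.1.1, Bowtie2 2.3.2, featureCounts 1.5.3, R 3.6.1 and edgeR 3.18.1. Strand setting and treatment of reads that map to several places are not given in the sources used here. Gene types, positions and neighbours were taken from GENCODE M21, which held 51633 of 51826 identifiers, and copies were found with BLAST 2.17.0.

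Genes that passed filterByExpr (15038, among them all 309 transcripts) were scaled by TMM and fitted in R 4.3.3 with edgeR 4.0.16 (glmQLFit), tested by glmTreat against 1.5-fold, two-sided, at an adjusted p (Benjamini-Hochberg) under 0.05. CPM values in the text are TMM scaled, except for the level rule. Standard errors are those of mean log2 CPM (prior count 2) between lines. A line's count of 3, its floor, equals 0.0454 to 0.0862 CPM. The nearest coding gene is that with the smallest gap on either strand. Fits were tested on simulated data. Alternatives were RLE factors, DESeq2 1.42.0, other filters and level rules, a likelihood ratio fit, a test against no change, replicate blocks, single mice and leaving out each line.

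Named were the called transcripts that rose most and fell most (12 each), the 6 most abundant, listed ones, the 4 with the smallest interaction p, those at the threshold and their neighbours. The other called transcripts were added after their values were seen. Members and lists were chosen with earlier results of these data known.

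Lines with equal numbers come from the same mouse by the labels. Deviations from condition means correlated between 0.0853 and 0.212 for equal numbers and from 0.0937 to 0.240 for other lines of one mouse, and from -0.203 to -0.0636 for different mice, so the mouse pairs the lines. The main fit held condition alone and, like the standard errors, left this pairing out. Mouse as replicate block was run as an alternative. No lines were duplicates (chi-square per gene at least 10.1).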

Additional observations from a re-analysis of the deposited data

Results flagged for a closer look

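Values that stood apart were sought in 88 groups of 6 lines, 2 for each of 44 named transcripts, and 10 lines had a gap to the nearest line above 0.625 of the group's range, where chance gives about 1 in 20 groups. EV 2C accounted for 4 of them, with 9.92 CPM for 2610035D17Rik, 2.45 CPM for Gm15326, 6.2 CPM for Gm11755 and 12.9 CPM for Gm6093. EV 2A had 2439 CPM for Gm26870 and 11.8 CPM for Gm20628. BCR-ABL1 lines stood apart with 98.4 CPM for Gm26870 (2C), 33.2 CPM for Gm46430 (2A), 18.3 CPM for Gm12493 (1A) and 28.5 CPM for Gm33104 (1B).

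The BCR-ABL1 effect differed between the mice for 17 named transcripts by the interaction test of edgeR (adjusted p between 5.47e-05 and 0.0469). The log2 change in mouse 2 minus that in mouse 1 was 5.08 for Nespas, 1.05 for Gm46430, 1.05 for Gm42047, 1.61 for Gm15326 and 1.00 for Gm16702. It was -0.77 for 4833445I07Rik, -1.17 for Gm30948, -1.38 for Gm33104, -1.88 for Pvt1, -2.07 for Platr27 and -2.19 for Gm15987. Larger differences of this sign were -2.51 for Gm12493, -2.73 for Gm11755, -3.81 for Trp53cor1, -4.36 for Gm6093, -4.48 for Gm13067 and -5.46 for Gm17767, whose EV lines of mouse 1 had 0 counts.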

How the results depend on the processing

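Of 24 called named transcripts 15 were called under each of the 22 alternatives run, and the fit with each line's number as block moved no call of the 44. Mouse as replicate block gave 13 transcripts higher and 67 lower, and changed among the 44 only the call of Gm26870. The number of each line as replicate block gave 13 higher and 46 lower. Nespas, not called over both mice, had a log2 change of 2.57 in mouse 2 alone and -2.50 in mouse 1 alone. Pvt1 was not called by DESeq2 (adjusted p = 0.0543) and in mouse 2 alone (0.158), nor Mir17hg (0.211 and 0.318).

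Counts of calls depended on the fit. With no gene filter 39 transcripts were lower. Against no change 7286 of all genes were called, 29 transcripts higher, 167 lower. Lines of mouse 1 alone gave 4389 genes, 27 higher and 94 lower, and those of mouse 2 alone 1022 genes and 17 lower. At a level of 1 CPM (465 transcripts) 20 were higher and 99 lower, and at 5 CPM (162) 23 were lower. At 2 CPM in all lines (216) 4 were higher and 28 lower. Without transcripts whose exons overlap opposite coding exons, or that overlap a coding gene on their strand (172 left), 28 were lower. The 7 pairs in which transcript and neighbour changed the same way were 57 against no change, 20 in mouse 1, 2 in mouse 2, 16 at 1 CPM, 4 at 5 CPM and 4 at 2 CPM in all lines. Leaving out single lines gave between 1641 and 2787 genes, 9 to 16 transcripts higher, 44 to 84 lower, 5 to 14 such pairs and 38 to 101 transcripts with a difference between the mice, the highest each time without EV 2C. Few counts limit Gm17767 in EV and D630033O11Rik in BCR-ABL1 lines, whose folds rest on 8 and 42 reads.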
